A study of Mus musculus with 24 samples.

Results

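The genes described here are the Myc family transcription factors Mycn and Myc and the 3 D-type cyclins, encoded by Ccnd1, Ccnd2 and Ccnd3. They were picked by exact gene symbol, not by their values, and are 5 of 12394 genes measured. The series holds 24 Affymetrix arrays of mouse RNA: 6 tissue arrays and 18 arrays of SMB cells, lines grown from spontaneous medulloblastomas (MB) of Ptch+/- mice. The study set SMB cells beside primary tumors and normal cerebellum. It also set untreated SMB cells beside cells given growth factors and cells transformed by RAS. The members are followed line by line, with the Hedgehog target Gli1 beside them, to see which of them were high where Mycn and Gli1 were low.

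RAS transformed SMB cells came from SMB21 (3 arrays), SMB55 (2 arrays) and SMB56 (2 arrays). The labels name neither the RAS allele nor its vector or promoter. Growth factor (GF) cells, 1 array per line, were parental cells kept for more than 3 weeks with EGF at 20 ng/mL, bFGF at 20 ng/mL and heparin. Parental cells had 4 arrays of SMB21, 2 of SMB55 and 2 of SMB56. All SMB cells carry the Ptch1 mutant genotype in the labels and grew as neurospheres in DMEM/F12 with B27. Nothing says whether a line is clonal. Primary MB (3 arrays) came from Ptch1 mutant adult mice, and wild-type cerebellum from an adult (1 array) and at P6, postnatal day 6 (2 arrays). P6 replicate 2 carries an age label at odds with its title, and its group was taken from the title. The titles call replicates biological, but nothing says that they came from separate animals or cultures, so p-values measure only the spread between these arrays.

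Hedgehog signalling drives the division of granule neuron precursors in the newborn cerebellum, and loss of Ptch1, the receptor that holds the pathway back, leaves it on and gives rise to medulloblastoma in mice. Mycn is a Hedgehog target in these precursors and a main driver of their division. D-type cyclins bind the kinases Cdk4 and Cdk6, which phosphorylate the retinoblastoma protein, and this frees E2f factors that switch on the genes of S phase. In granule precursors Ccnd1 and Ccnd2 are the cyclins linked to Hedgehog signalling. In many cell types RAS and growth factor signalling through ERK raises Ccnd1 transcription.

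Mycn lies at chr12:12936093-12941836 (GRCm38.p6), Myc at chr15:61985341-61990361, Ccnd1 at chr7:144929931-144939831, Ccnd2 at chr6:127125162-127152188 and Ccnd3 at chr17:47505051-47599689. The array carries 3 probe sets for Mycn, 3 for Ccnd1, 7 for Ccnd2 and 1 each for Myc and Ccnd3. Each gene is represented by its brightest probe set on average over the 24 arrays. An array gives no scale shared by different probe sets, so levels are compared between arrays and never between genes.

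The Mycn promoter is shown because Mycn moved further between cultures than any other member. The 250 bases before its start in RefSeq (GRCm38.p6, chr12:12941837-12942086, minus strand) read as follows, 5′ to 3′, with matches to the motifs searched in capitals.
Mycn promoter: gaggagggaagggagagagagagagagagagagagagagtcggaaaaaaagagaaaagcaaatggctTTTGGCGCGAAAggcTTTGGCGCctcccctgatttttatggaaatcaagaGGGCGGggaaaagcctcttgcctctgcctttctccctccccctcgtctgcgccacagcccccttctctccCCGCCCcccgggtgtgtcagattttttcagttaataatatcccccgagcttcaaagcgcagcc
The capitals mark 3 matches to an E2F motif (TTTNNCGC) and 2 to an Sp1 motif (GGGCGG), on either strand. The E2F matches start at -183, -179 and -168 from the gene's start, and the first 2 overlap in 1 run. The Sp1 matches start at -133 and -63. Of 32851 RefSeq windows of 300 bases (250 before and 50 after a start), 5.17% held the E2F letters and 35.66% the Sp1 letters. The letters of the Gli motif (GACCACCCA), the E-box (CACGTG), AP-1 (TGANTCA), TCF (CTTTGAT) and CRE (TGACGTCA) are not in this window. Those were in 0.25%, 7.15%, 7.81%, 3.73% and 1.79% of all windows. Both windows of Ccnd3 held the Sp1 letters and none of the others. RefSeq windows were matched for 2 of the 5 members, and the remaining ones are Myc, Ccnd1 and Ccnd2. A match describes letters only.

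A few arrays stood apart from their groups, and results that rest on them are given with and without them. The parental arrays of SMB56 correlated at 0.944 with each other, while SMB56 parental replicate 2 correlated at 0.980 with SMB55 parental replicate 2 and SMB56 parental replicate 1 at 0.962 with SMB21 parental replicate 1. SMB21 parental replicate 1 correlated at 0.969 to 0.971 with its group, whose other arrays reached 0.992 to 0.996. Y-linked genes also split lines: Kdm5d, a histone demethylase, read 549 in SMB21 parental replicate 1 and 449 in SMB21 GF cells, against 13.9 to 16.6 in the other SMB21 arrays, and 288.5 to 408 in SMB56 parental and GF cells, against 13.4 and 18.9 in SMB56 RAS cells. Uty split both lines in the same way. Eif2s3y did so in SMB21 only, and in SMB56 it read 583 in parental replicate 2, against 14.4 in parental replicate 1 and 17.3 in GF cells. Y-linked genes thus differed between arrays that carry the same line label. In SMB56 Kdm5d split RAS from parental arrays, so RAS differences there compare arrays that also differ in it, whichever array is left out. The part of this in the results on the members was not tested. Array medians lay between 188.8 and 245.1, and the labels name no batch.

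The cells' own markers also moved with treatment. Atoh1, the transcription factor that defines granule neuron precursors, read 26.3 to 182 in RAS cells and 61.9, 2322 and 72.5 in SMB21, SMB55 and SMB56 GF cells, against 3531 to 8026 in parental cells. The summed intensity of 6 granule precursor markers was 2426 to 12900 in RAS cells and 4266 to 13689 in GF cells, against 14956 to 27459 in parental cells. Of the 10 microglia and macrophage markers only the lysosomal protein Cd68 ran high, at 54.9 to 852 in RAS cells and 35.9 to 206 in GF cells, against 32.2 to 43.2 in parental cells. The other 9, such as Tyrobp, Aif1 and C1qa, stayed between 15.7 and 118 on all 18 cell arrays. Fibroblast markers (4) summed to 462 to 4644 in RAS cells, against 207 to 286 in parental cells, with Foxc1 and Dcn high and the collagen genes Col1a1 and Col1a2 at no more than 104 in RAS cells. Neural stem markers (3) summed to 4337 to 11071 in RAS cells, against 2293 to 7498 in parental cells. Astrocyte markers (6) summed to 3929.5 to 10148 in RAS cells and 5273 to 8874 in GF cells, against 1471.5 to 6468 in parental cells. These sums were carried by Gja1, Slc1a3 and S100b, and Gja1 ran high in RAS cells only. On all 18 cell arrays Gfap stayed between 69.9 and 169, Aqp4 between 14.9 and 83.2 and Aldh1l1 between 27.3 and 44.7. Oligodendrocyte markers (3) split SMB21, at 10564 in parental replicate 1 and 11537 in GF cells. The other SMB21 parental arrays had 73.9 to 99.7 of these, and SMB21 RAS cells 56.1 to 258. They also split SMB56 parental cells, at 855 in replicate 1 and 15044.5 in replicate 2, against 15112 and 13466 in SMB56 RAS cells. In SMB55 they summed to 5039 and 4016 in RAS cells, against 9260 and 21354.5 in parental cells. The part of these marker shifts in the results on the members was not tested, and in bulk RNA fewer cells of a type and less RNA per cell cannot be told apart.

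In RAS transformed cells Mycn fell to a small part of its parental level in every line, and Ccnd1 rose in every line. Myc, the other Myc gene measured as a member, did not pass the test, and neither did Ccnd2 or Ccnd3. Values below are deposited linear intensities per array, and differences are of log2(intensity + 16) with their standard error (SE). With so few arrays, groups can fail to overlap without a change. The share of all genes that did so was not computed for any comparison.

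In SMB21, Mycn read 119, 233 and 43.4 in the 3 RAS arrays, against 1967, 1181, 1459 and 1659 in the 4 parental arrays. In SMB55 it read 139 and 361 in RAS cells, against 4526 and 5039 in parental cells. In SMB56 it read 232 and 307 in RAS cells, against 4355 and 2738 in parental cells. The groups did not overlap in any line, and the highest RAS value lay below the lowest parental one of all lines. Over the 3 lines the difference was -3.80 (SE 0.45, 13.9-fold lower; limma adjusted p = 2.96e-05; 95% interval -4.76 to -2.84). Of the 12394 genes, 32.1% were called in this comparison, 17.9% lower and 14.1% higher, and 0.2% of genes had a difference below that of Mycn. Without the first parental array of each line it was -3.64 (adjusted p = 0.000942).

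Ccnd1, the D-type cyclin best known as an ERK and RAS target, read 13917, 13941 and 13163 in SMB21 RAS cells, against 7837, 7896, 8141 and 6692 in SMB21 parental cells. In SMB55 it read 21940 and 20406 in RAS cells, against 7846 and 8072 in parental cells. In SMB56 it read 16865 and 16411 in RAS cells, against 5236 and 9276 in parental cells. Each RAS array lay above each parental array, across lines as well as within them. The difference was 1.10 (SE 0.15, 2.14-fold; limma adjusted p = 7.57e-05), and 93.3% of genes had a smaller one. Without the first parental arrays it was 0.96 (adjusted p = 0.00051).

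**Figure D1:**
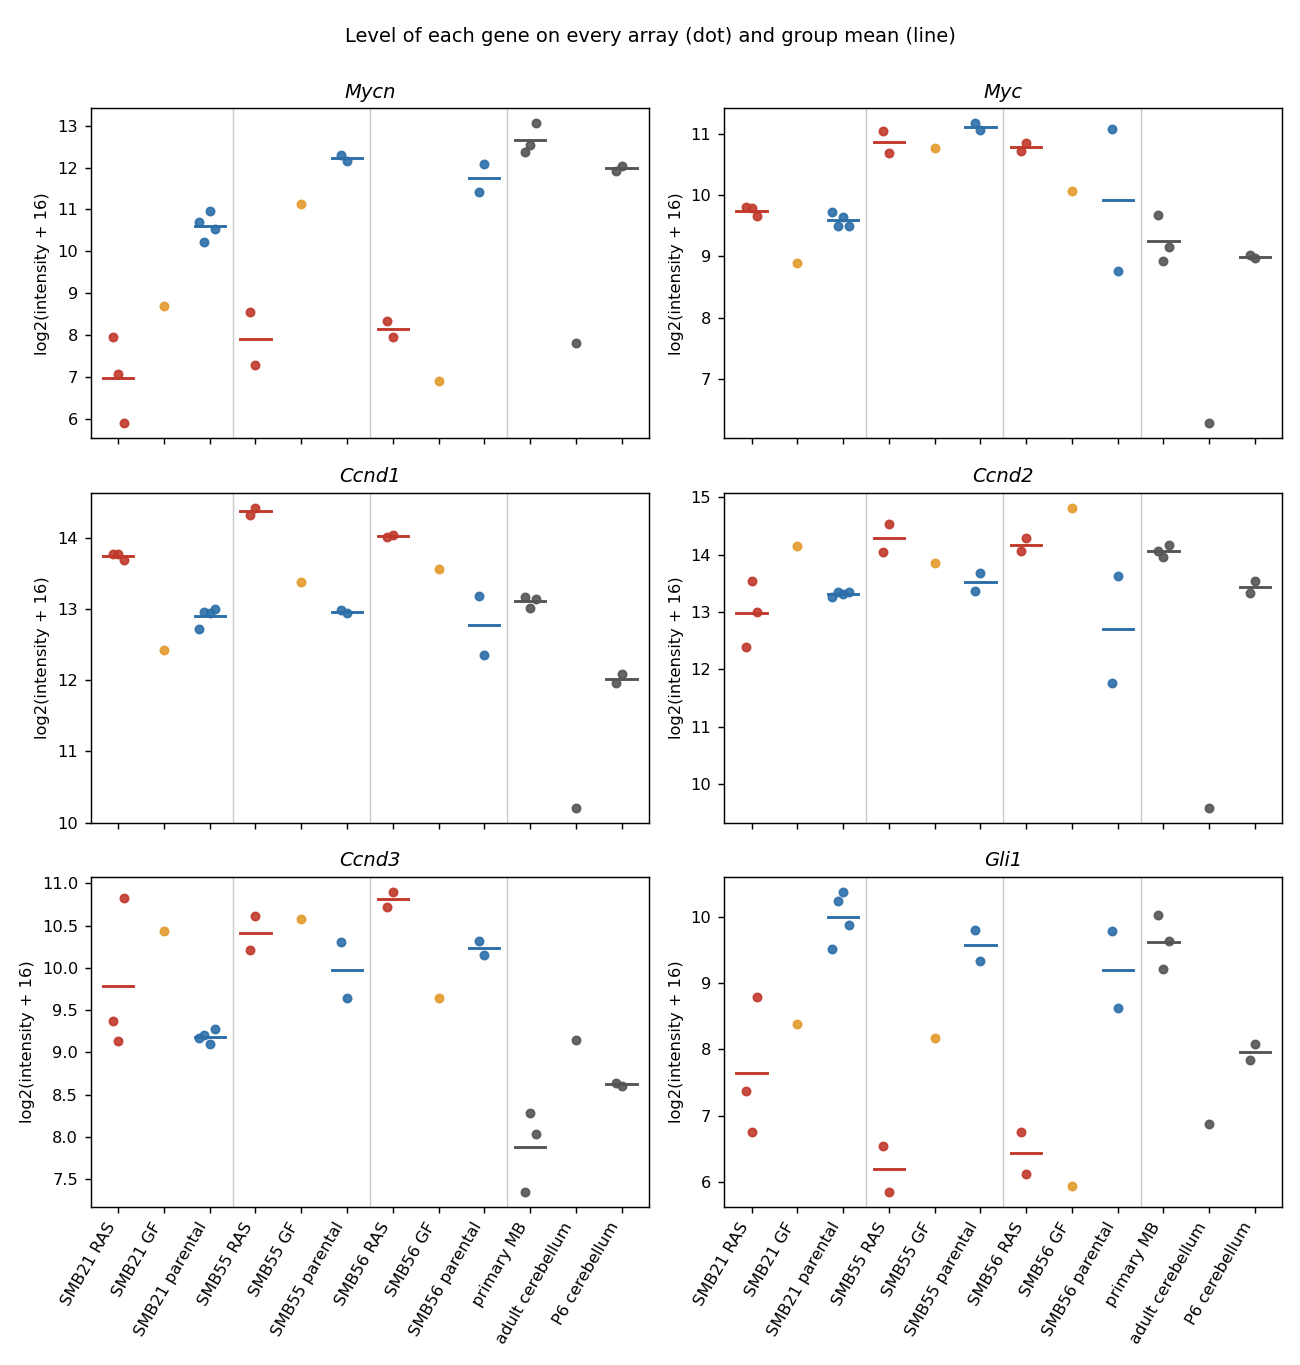
Level of the 5 members and of Gli1, as log2(intensity + 16), on each of the 24 arrays (1 panel per gene, dots for arrays, lines for group means), for RAS, GF and parental cells of each SMB line and then primary MB, adult and P6 cerebellum. On the intensity scale the dots stand for 43.4 to 361 of Mycn in the 7 RAS arrays and 1181 to 5039 in the 8 parental arrays, and for 13163 to 21940 of Ccnd1 in RAS cells and 5236 to 9276 in parental cells.

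Myc, the founding member of the family and a growth regulator downstream of many mitogens, read 867, 875 and 786 in SMB21 RAS cells, against 782, 702, 708 and 828 in parental cells. In SMB55 it read 1635 and 2098 in RAS cells, against 2117 and 2283 in parental cells. In SMB56 it read 1826 and 1665 in RAS cells, against 417 and 2133 in parental cells. The groups overlapped in SMB21 and SMB56, and in SMB55 the RAS values were the lower ones. The difference was 0.24 (SE 0.26; limma adjusted p = 0.515; 95% interval -0.32 to 0.79), so no rise of Myc in place of Mycn was detected, and the interval holds a rise of up to 0.79. SMB56 decided its sign: without SMB56 parental replicate 1 it was -0.04.

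Ccnd2, a cyclin of granule precursors, read 11963, 5354 and 8132 in SMB21 RAS cells, against 10213, 10445, 10379 and 9781 in parental cells. In SMB55 it read 23811 and 16815 in RAS cells, against 13119 and 10525 in parental cells. In SMB56 it read 20036 and 17058 in RAS cells, against 12693 and 3473 in parental cells. RAS values were above parental ones in SMB55 and SMB56 and overlapped them in SMB21, where 2 of 3 lay below. The difference was 0.45 (SE 0.32; limma adjusted p = 0.312).

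Ccnd3, the D-type cyclin best known from lymphocytes, read 547, 649 and 1800 in SMB21 RAS cells, against 533, 573, 606 and 558 in parental cells. In SMB55 it read 1545 and 1171 in RAS cells, against 784 and 1251 in parental cells. In SMB56 it read 1890 and 1671 in RAS cells, against 1124 and 1260 in parental cells. The groups did not overlap in SMB56 alone, and the high SMB21 value is that of RAS replicate 3. The difference was 0.56 (SE 0.25; limma adjusted p = 0.109).

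SMB21 RAS replicate 3 had the highest Ccnd3 and the lowest Mycn of its group, and it was also the RAS array with the highest Gli1 and Hhip. Gli1, a transcription factor that is itself a Hedgehog target, read 91.2, 150 and 428 in SMB21 RAS cells, against 1321, 1205, 929 and 715 in parental cells. Gli1 was 41.4 and 77.0 in SMB55 RAS cells, against 631 and 882 in parental cells, and 53.3 and 92.2 in SMB56 RAS cells, against 379 and 868 in parental cells. It fell by 2.75 (SE 0.35; limma adjusted p = 4.93e-05), and RAS and parental values did not overlap in any line. The receptor Ptch1, which Hedgehog signalling also induces, missed the threshold at -0.87 (adjusted p = 0.0505). Hhip, a Hedgehog binding protein and target, differed by 0.13 (adjusted p = 0.853), with 860 in SMB21 RAS replicate 3. Of the 3 readouts, only Gli1 passed the test.

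Taken by line, Mycn fell in all 3, with differences of -3.63 in SMB21 (limma adjusted p = 0.000237), -4.31 in SMB55 (adjusted p = 0.000611) and -3.62 in SMB56 (adjusted p = 0.00388). Ccnd1 rose by 0.84 in SMB21 (adjusted p = 0.00369), 1.41 in SMB55 (adjusted p = 0.001) and 1.25 in SMB56 (adjusted p = 0.00464). The shares of all genes called within lines were 19.4% in SMB21, 21.5% in SMB55 and 12% in SMB56. In SMB56 RAS and parental arrays also differed in Kdm5d, and the differences within this line cannot be told apart from that split. Ccnd2 differed by -0.34, 0.77 and 1.47 in SMB21, SMB55 and SMB56, Myc by 0.16, -0.25 and 0.87, and Ccnd3 by 0.59, 0.44 and 0.57, and none of these 9 passed limma's test. The only unadjusted p under 0.05 among them was 0.0124, for Ccnd2 in SMB56. In SMB56 the Myc value rests on 1 parental array: it was 2.02 (adjusted p = 9.34e-05) without parental replicate 2 and -0.29 without parental replicate 1. Ccnd2 there was 2.41 (adjusted p = 0.0103) without parental replicate 1.

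Whether the response to RAS differed between lines was tested with an F test over the 3 lines, which called 3.45% of all genes. It called none of the 5 members (limma adjusted p = 0.816 for Mycn, 0.609 for Myc, 0.347 for Ccnd1, 0.204 for Ccnd2 and 0.986 for Ccnd3). The only unadjusted p under 0.05 was 0.0361, for Ccnd2, and the adjusted p for it was 0.0241 without SMB56 parental replicate 1. Without SMB56 parental replicate 2 Myc (adjusted p = 0.000674) and Ccnd1 (0.0168) passed instead, and by probe set 1425922_a_at Mycn did (0.0444). The lower Ccnd2 in SMB21 and the higher Ccnd2 in SMB56 are therefore not shown to differ by line on all arrays.

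**Figure D2:**
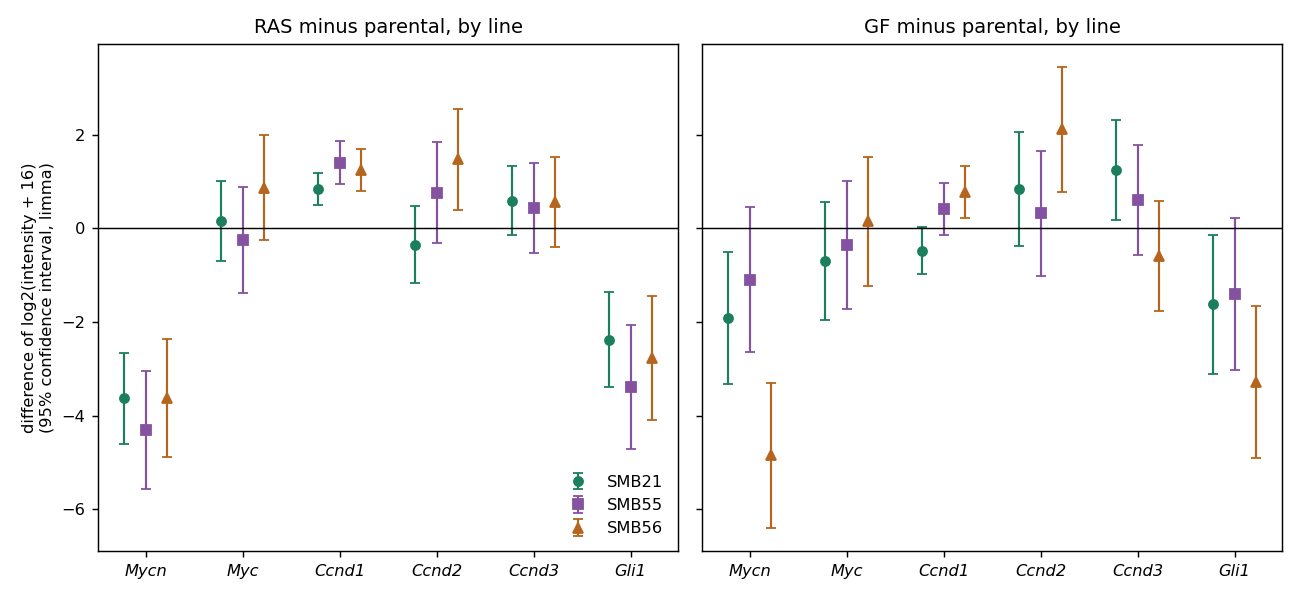
Difference of log2(intensity + 16) from parental cells of the same line for RAS cells (left) and GF cells (right), for the 5 members and Gli1 (symbols for SMB21, SMB55 and SMB56, bars for limma's 95% confidence intervals, horizontal line at no difference). Mycn lies at -3.63, -4.31 and -3.62 for RAS and at -1.92, -1.09 and -4.85 for GF in SMB21, SMB55 and SMB56, and Ccnd1 lies above 0 in all 3 lines for RAS but below 0 in SMB21 for GF (-0.47).

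Levels of Mycn also varied between the parental lines, but on all arrays no member passed the test of a difference between them. Mycn averaged 10.60 ± 0.31 in parental SMB21 (SD, n = 4), 12.23 ± 0.11 in SMB55 and 11.76 ± 0.47 in SMB56 (n = 2 each) on the log2 scale. The F test over parental lines called 5.08% of all genes and gave a limma adjusted p of 0.127 for Mycn, 0.131 for Myc, 0.826 for Ccnd1, 0.522 for Ccnd2 and 0.189 for Ccnd3. The unadjusted p was under 0.05 for 3 members, at 0.0158 for Mycn, 0.0168 for Myc and 0.0345 for Ccnd3. SMB21 had the lowest Mycn, and all 4 of its arrays lay below the 4 of the other lines. Ccnd3 was lower in SMB21 as well, at 533 to 606 against 784 to 1260 in SMB55 and SMB56. Several members passed under another choice of arrays or probe set: Ccnd3 (adjusted p = 0.0166) without SMB21 RAS replicate 3, Myc without SMB56 parental replicate 1 (0.000104) or 2 (4.29e-05), Ccnd2 (0.0342) without the first of these and Ccnd1 (0.0371) without the second. Mycn passed by probe set 1425922_a_at (0.00462) and by the mean of its probe sets (0.0222).

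In growth factors Mycn and Gli1 fell too, and none of the cyclins passed the test. Mycn read 396, 2228 and 105 in SMB21, SMB55 and SMB56 GF cells, against the parental values above. Each GF array lay below the parental arrays of its line. The difference was -2.57 (SE 0.59, 5.94-fold lower; limma adjusted p = 0.0149), where 8.95% of all genes were called, 4.96% lower and 3.99% higher. With arrays of the same line and number as a replicate block, RAS arrays included, it was -2.58 (adjusted p = 0.112). Without the SMB56 GF array it was -1.45 (adjusted p = 0.105), and with the first parental arrays alone as parental cells it was -2.82 (adjusted p = 0.121).

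Line by line the GF differences of Mycn were -1.92 in SMB21, -1.09 in SMB55 and -4.85 in SMB56. Among SMB21 parental arrays only replicate 1 shared the Kdm5d signal of the SMB21 GF array. The F test of the GF response over lines, which called 1.4% of all genes, gave Mycn an unadjusted p of 0.00726 and a limma adjusted p of 0.169, so a difference between lines was not established with 1 GF array each. SMB55 GF cells kept most Mycn, and they also kept Atoh1 at 2322, whereas SMB21 and SMB56 GF cells had Atoh1 at 61.9 and 72.5.

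Gli1 read 319, 273 and 44.9 in SMB21, SMB55 and SMB56 GF cells and fell by 2.04 (SE 0.46; limma adjusted p = 0.0127). Its GF differences by line were -1.62, -1.40 and -3.28, lowest in SMB56 as for Mycn. Gli1 and Mycn were not in step everywhere, since SMB21 GF cells had more Gli1 than SMB55 GF cells and less Mycn. SMB21 RAS replicate 3 had 428 of Gli1 with 43.4 of Mycn.

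**Figure D3:**
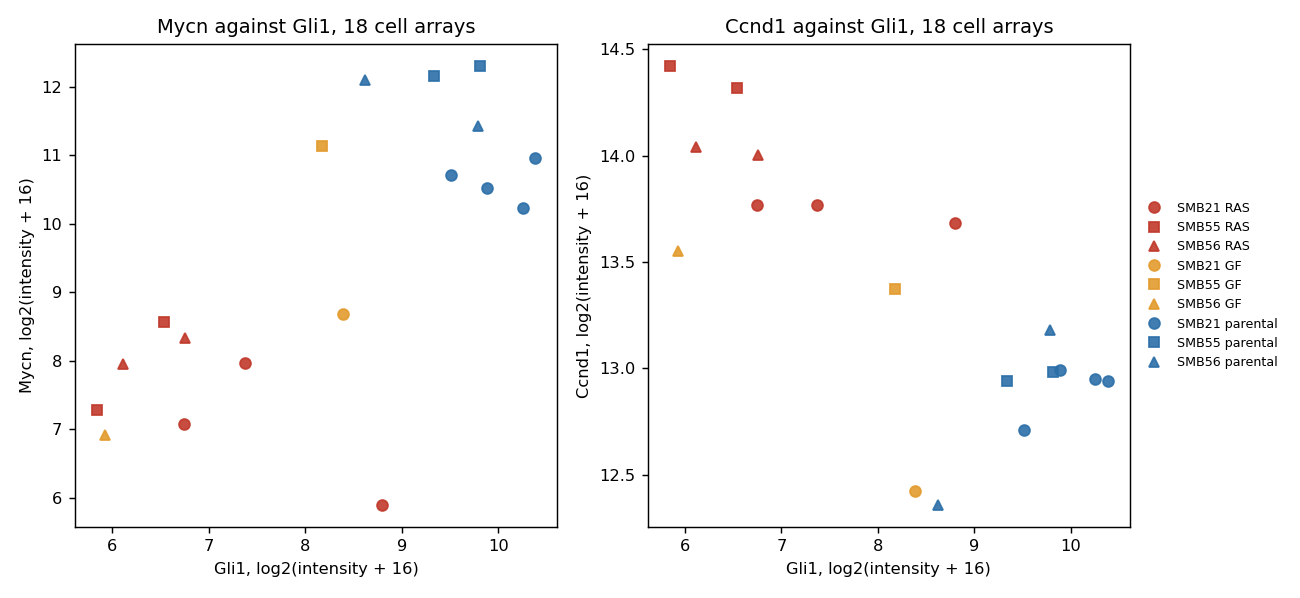
Level of Mycn (left) and of Ccnd1 (right) against that of Gli1, each as log2(intensity + 16), on the 18 cell arrays, with colours for RAS, GF and parental cells and symbols for the lines. Parental arrays lie at high Gli1 and high Mycn, RAS arrays at low Mycn and high Ccnd1, and SMB21 RAS replicate 3 stands apart with 428 of Gli1 and 43.4 of Mycn.

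For the cyclins in growth factors, values are placed against the parental arrays of each line. A single GF array can lie outside them without a change, and the share of all genes that did so was not computed. Ccnd2 read 18251, 14706 and 28868 in SMB21, SMB55 and SMB56 GF cells, above all parental arrays of the same line in each case. Its difference was 0.99 (SE 0.43; limma adjusted p = 0.173, unadjusted 0.0352), the highest of the 5 members, and 95% of genes had a smaller one. Ccnd1 read 5487, 10611 and 12013 in the same cells, below the parental arrays in SMB21 and above them in SMB55 and SMB56. Its difference was 0.18 (adjusted p = 0.652).

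Ccnd3 read 1369, 1512 and 783 in SMB21, SMB55 and SMB56 GF cells, above parental arrays in SMB21 and SMB55 and below them in SMB56. Its difference was 0.46 (limma adjusted p = 0.473). Myc read 460, 1720 and 1058, below the parental arrays in SMB21 and SMB55 and between them in SMB56. Its difference was -0.32 (adjusted p = 0.652), so in growth factors too no rise of Myc was detected (95% interval -1.04 to 0.40). Without SMB56 parental replicate 1 it was -0.62 (adjusted p = 0.0127).

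The F test of the GF response over lines gave limma adjusted p = 0.917 for Myc, 0.19 for Ccnd1, 0.609 for Ccnd2 and 0.467 for Ccnd3. The unadjusted p for Ccnd1 was 0.00962. Without SMB56 parental replicate 2 both Ccnd1 (adjusted p = 0.00541) and Myc (0.0058) passed. With 1 GF array per line, each GF value is assumed to vary as the other groups do.

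RAS cells and GF cells were then compared directly. On all arrays Ccnd1 was the only member that passed, higher in RAS cells by 0.91 (SE 0.20, 1.88-fold; limma adjusted p = 0.0105), where 11.2% of all genes were called. All 7 RAS arrays lay above all 3 GF arrays. The adjusted p was 0.0609 without the SMB21 GF array (0.62) and 0.117 with the replicate block (0.84). Mycn differed by -1.23 (adjusted p = 0.189), Myc by 0.56 (adjusted p = 0.301), Ccnd2 by -0.54 (adjusted p = 0.431), Ccnd3 by 0.10 (adjusted p = 0.872) and Gli1 by -0.71 (adjusted p = 0.324). Single arrays decided the Myc genes here: Mycn was -2.37 (adjusted p = 0.0138) without the SMB56 GF array and -2.41 (0.0211) without line SMB56. Myc was 0.58 (adjusted p = 0.0148) without SMB56 parental replicate 1 and 0.58 (0.0223) without the first parental arrays.

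Mycl, the remaining Myc family member, was lower in RAS and GF cells, as Mycn was. It read 69.3, 51.9 and 214 in SMB21 RAS cells, 40.3 and 56.3 in SMB55 RAS cells and 72.7 and 160 in SMB56 RAS cells. GF cells of SMB21, SMB55 and SMB56 had 64.4, 691 and 58.7. Parental cells had 1365, 2138, 3169 and 3065 in SMB21, 1583 and 1374 in SMB55 and 1954 and 1798 in SMB56. Every RAS and GF array lay below every parental one. Mycl fell by 4.33 in RAS cells (SE 0.46; limma adjusted p = 1.26e-05) and fell by 3.59 in GF cells (SE 0.61; adjusted p = 0.00286). The SMB55 GF array again had the highest value among RAS and GF cells, as for Mycn.

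Of 12 measured genes of the Myc network (partners and antagonists that bind Max), 3 fell and 0 rose with RAS (25%, against 17.9% of all genes lower), with a median of -0.17 against -0.05 over all genes. Beside Mycl these were the antagonist Mxd4 (-0.73) and the Max partner Mga (-0.46). With GF 3 fell and 0 rose (25%, against 4.96% of all genes lower; median -0.25 against -0.01), Mycl, Max (-0.60), which Myc needs to bind DNA, and Mga (-0.85). With the first parental arrays alone as parental cells 0 of 12 passed in limma, and without them 2 fell with RAS. Of 9 genes of Myc protein turnover 4 fell and 1 rose with RAS (44.4% and 11.1%, against 17.9% and 14.1% of all genes). Those that fell included Cip2a (-1.02), an inhibitor of a phosphatase that destabilises Myc, and the ubiquitin ligase subunits Skp2 (-1.002) and Fbxw7 (-0.60). The phosphatase subunit Ppp2r5a rose by 0.41. With GF 2 fell (22.2%, against 4.96% of all genes lower), Skp2 by 1.07 and Cip2a by 0.70, and 0 with the first parental arrays alone. Without those arrays 3 fell with RAS.

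Of 25 growth genes that Myc proteins are known to activate, 8 fell and 1 rose with RAS (32% and 4%, against 17.9% and 14.1% of all genes; median -0.16). The smallest p-values were those of the DNA repair enzyme Apex1 (-0.93), the nucleolar proteins Fbl (-0.68) and Nop56 (-0.79) and of Cdk4 (-0.61). Without the first parental arrays 3 fell and 0 rose. With GF 1 fell, the nucleolar protein Nolc1 (-0.51), and 0 rose (median -0.14). That is 4% lower, near the 4.96% of all genes.

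**Figure D4:**
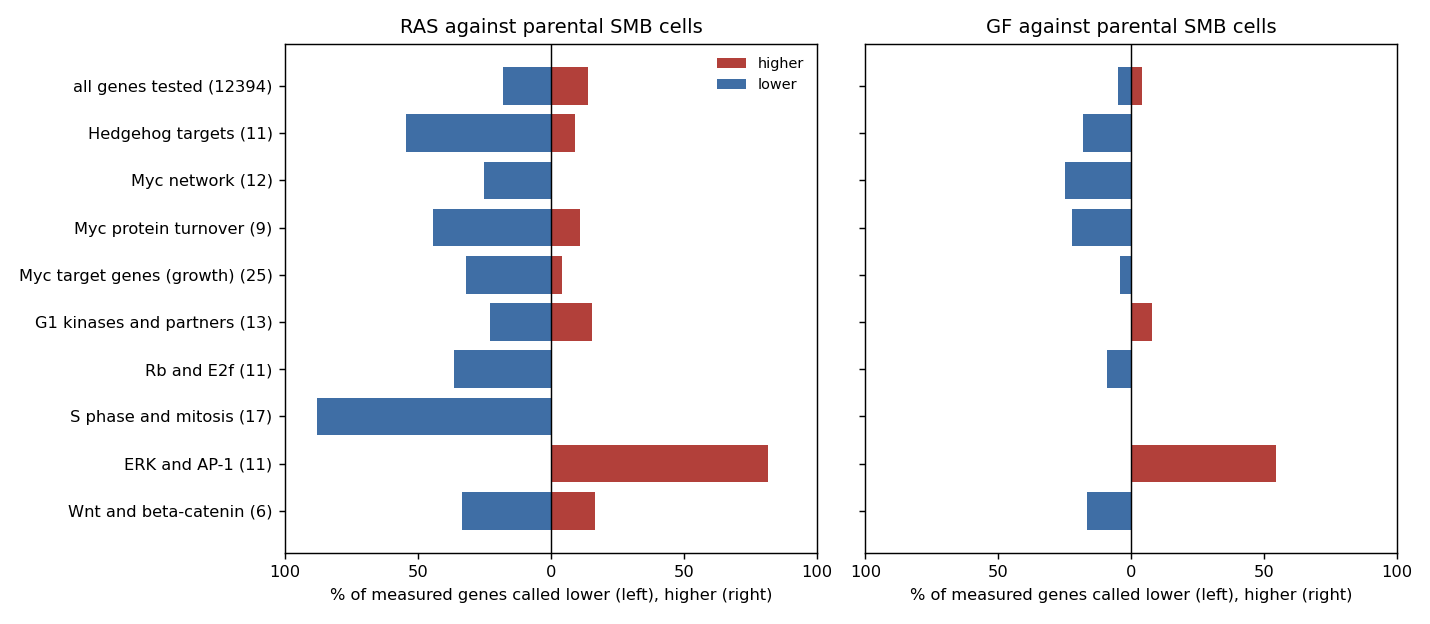
Percentage of the measured genes of each of the 9 pathway lists, and of all genes tested, that were called lower (bars to the left) or higher (bars to the right) by limma at an adjusted p under 0.05, with RAS (left) and with GF (right); the number of measured genes stands in parentheses. With RAS the bars reach 88.2% lower for S phase and mitosis and 81.8% higher for ERK and AP-1, against 17.9% lower and 14.1% higher over all genes.

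The list of ERK targets, feedback inhibitors among them, and of AP-1 factors had the highest median of the 9 lists with RAS and with GF. Its part in the level of Ccnd1 or Myc was not tested. With RAS 9 of 11 rose and 0 fell (81.8%, against 14.1% of all genes higher), with a median of 2.03, and 9 of 11 also rose without the first parental arrays. They included the ERK phosphatase Dusp6 (2.78, SE 0.26; limma adjusted p = 4.39e-06), the immediate early factor Egr1 (3.18), the AP-1 subunit Junb (2.65) and the feedback inhibitor Spry4 (1.80). Etv5 (0.68) and Ets2 (-0.25) did not pass. With GF 6 of 11 rose and 0 fell (54.5%, against 3.99% of all genes higher), with a median of 1.18. Among them were Spry2 at 2.52, Dusp6 at 1.93, Etv4 at 2.22 and Egr1 at 1.76. Only 3 rose with the first parental arrays alone as parental cells. In GF cells Ccnd1 thus did not pass where 6 genes of this list did.

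Of 11 Hedgehog genes measured, 6 fell and 1 rose with RAS (54.5% and 9.1%, against 17.9% and 14.1% of all genes; median -0.91), with the secreted Wnt modulator Sfrp1 at -4.35, Smo, the pathway's signal transducer, at -1.04, Gli1 at -2.75 and the transcription factor Gli2 at -2.45. With GF 2 fell (18.2%, against 4.96% of all genes), Sfrp1 (-4.60) and Gli1. Without the first parental arrays 5 fell with RAS, and with them alone 1 fell with GF. Of 6 Wnt and beta-catenin genes, 1 rose and 2 fell with RAS, or 16.7% and 33.3% (the transcription factor Lef1 at 1.36, the inhibitor Nkd1 at -1.73 and the transcription factor Sp5 at -0.19), and with GF Nkd1 fell by 1.57.

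Of the partners of D-type cyclins, Cdk4 and Rb1 fell with RAS. Cdk4, a kinase they activate, read 2785, 4202 and 3893 in SMB21 RAS cells, against 6140, 5408, 4237 and 4153 in parental cells. It read 2920 and 3959 in SMB55 RAS cells, against 7628 and 5461 in parental cells, and 2780 and 2664 in SMB56 RAS cells, against 3396 and 4526 in parental cells. RAS values overlapped parental ones only in SMB21. Cdk4 fell by 0.61 (SE 0.14; limma adjusted p = 0.00404), and Cdk6 differed by -0.55 (adjusted p = 0.101). With GF the differences were -0.24 for Cdk4 and -0.84 for Cdk6, neither called.

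Rb1, the retinoblastoma protein that cyclin D kinases inactivate, read 716, 457 and 397 in SMB21 RAS cells, against 1311, 1373, 1507 and 1429 in parental cells. In SMB55 it read 539 and 486 in RAS cells, against 1818 and 1463 in parental cells, and in SMB56 647 and 1113 in RAS cells, against 1554 and 993 in parental cells. The groups overlapped only in SMB56. Rb1 fell by 1.25 with RAS (SE 0.18; limma adjusted p = 0.00015). GF cells had 1250, 1708 and 1368 in SMB21, SMB55 and SMB56, a difference of -0.02 (adjusted p = 0.979), and the direct difference of RAS and GF cells was -1.24 (adjusted p = 0.00716). Rb1 and Ccnd1 were thus both called between RAS and GF cells, in opposite directions.

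Of 11 genes of the Rb and E2f group 4 fell and 0 rose with RAS (36.4%, against 17.9% of all genes lower): Rb1, the E2f partner Tfdp1 (-0.46), the repressor E2f8 (-0.91) and the MuvB subunit Lin9 (-0.46). With GF only Lin9 passed (-0.72), or 9.1% lower against 4.96% of all genes, and 0 of 11 passed with the first parental arrays alone. Of 13 G1 kinases and partners 2 rose and 3 fell with RAS (15.4% and 23.1%), shares near the 14.1% and 17.9% of all genes. The kinase inhibitors Cdkn2a (1.10) and Cdkn1a (2.03) rose, and the inhibitor Cdkn1b (-0.67) and the cyclin Ccne2 (-0.96) fell, as did Cdk4. With GF 1 of 13 rose (7.7%, against 3.99% of all genes higher), the inhibitor Cdkn2b by 1.47, and 0 fell. With the first parental arrays alone 0 of 13 genes passed.

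Genes of S phase and mitosis fell where Ccnd1 rose. With RAS 15 of 17 fell and 0 rose (88.2%, against 17.9% of all genes lower; median -0.60), including the replication helicase subunit Mcm6 (-0.86), the polymerase clamp Pcna (-0.65), the cyclin Ccna2 (-1.19) and the thymidylate synthase Tyms (-0.71). Foxm1 (-0.34) and Plk1 (-0.20) did not pass. Without the first parental arrays 7 of 17 fell and the median was -0.52. With GF 0 of 17 passed in limma (2 at an unadjusted p under 0.05, both lower; median -0.10), where Tyms differed by -0.65 and Mcm6 by -0.44. Between RAS and GF cells 3 of 17 were lower in RAS cells (17.6%, against 5.5% of all genes).

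In the tissues and parental cells, all with high Mycn apart from the adult cerebellum, Ccnd1 again set groups apart. Mycn read 5969, 5284 and 8486 in primary MB, against 4206 and 3875 at P6, where the difference of 0.67 did not pass (SE 0.45; limma adjusted p = 0.371). All 3 tumors lay above both P6 arrays, which can happen without a difference in so few arrays. The share of all genes that did so was not computed. Ccnd1 read 8222, 9178 and 9041 in primary MB, against 4310 and 3965 at P6. It was 1.09 higher (SE 0.10, 2.13-fold; adjusted p = 0.0012), with 11% of all genes called, 4.3% higher and 6.68% lower. With all 3 cerebella as 1 group the difference was 1.69 (adjusted p = 0.0565).

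Ccnd2 read 15952, 17121 and 18344 in primary MB, against 11933 and 10250 at P6, a difference of 0.63 (SE 0.23; limma adjusted p = 0.134). The adjusted p was 0.0381 without SMB56 parental replicate 2 and 0.451 without SMB56 parental replicate 1, and it was 0.0314 with only the groups compared. The groups did not overlap. As for Mycn, the share of all genes without overlap was not computed, here or for Ccnd3. Ccnd3 read 296, 147 and 245 in primary MB, against 374 and 382 at P6, a difference of -0.73 (adjusted p = 0.237), with the tumors all lower. Myc read 467, 796 and 552 in primary MB, against 484 and 504 at P6, and overlapped (0.25, adjusted p = 0.75). Gli1 was 1.67 higher in primary MB (adjusted p = 0.016).

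Tumor and P6 tissue also differed in cell content. Purkinje cell markers (3) summed to 108 to 546 in primary MB, against 23652 and 24620 at P6. The 10 microglia and macrophage markers summed to 14372 to 24449 in primary MB, against 5780 and 7682 at P6. Granule precursor markers (6) summed to 42085 to 46509 in primary MB, against 35051 and 38013 at P6. The part of these shifts in the cyclin values was not tested.

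Parental SMB cells, taken as 1 mean per line, had more Ccnd1 than P6 cerebellum, and more Ccnd3 and less Ccnd2 than primary MB. Their Ccnd1 was 0.86 above P6 (SE 0.10; limma adjusted p = 0.00205), where 25.6% of all genes were called, and it was 0.72 (adjusted p = 0.0398) without SMB56 parental replicate 2 and 1.46 (adjusted p = 0.0506) with all 3 cerebella as 1 group. Mycn differed from P6 by -0.46 (adjusted p = 0.495), Ccnd2 by -0.25 (adjusted p = 0.461), Myc by 1.21 (adjusted p = 0.0865) and Ccnd3 by 1.18 (adjusted p = 0.0545). Myc passed without SMB56 parental replicate 1 (1.595, adjusted p = 0.0494) and without line SMB21 (1.52, 0.0493). Ccnd3 passed without line SMB21 (1.48, adjusted p = 0.0205) and under 4 other alternatives, at adjusted p = 0.0344 to 0.0453.

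Against primary MB, with 20.6% of all genes called, Ccnd3 was 1.91 higher in parental SMB cells (SE 0.33, 3.76-fold; limma adjusted p = 0.00982). All 8 parental arrays, at 533 to 1260, lay above the 3 tumors at 147 to 296. Ccnd2 was 0.88 lower in parental cells (SE 0.21; adjusted p = 0.0279), with 3473 to 13119 over 8 arrays against 15952 to 18344 in the tumors. That call was lost without any single tumor or P6 array, at adjusted p = 0.0547 to 0.0833, without SMB56 parental replicate 1 (0.0974) and without SMB55 parental replicate 2 (0.0541). Mycn differed by -1.13 (adjusted p = 0.0919), Myc by 0.96 (adjusted p = 0.13) and Ccnd1 by -0.23 (adjusted p = 0.126). Gli1 differed by -0.03 (adjusted p = 0.94). Mycn passed with arrays centred on the median (-1.34, adjusted p = 0.0399), without line SMB55 (-1.48, 0.0407) and with all 8 parental arrays and line as a random block (-1.26, 0.0458). Ccnd1 passed with the centred arrays (-0.44, adjusted p = 0.0262) and was 0.13 by probe set 1417419_at. Cultures and tumors also differed in cell content: the 10 microglia and macrophage markers summed to 350 to 420 in parental cells, against 14372 to 24449 in primary MB, and the 5 neuron markers to 635 to 2442 in parental cells, against 11025 to 28115 in primary MB. The part of these shifts in the differences of the members was not tested.

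The adult cerebellum, where granule cells no longer divide, had 209 of Mycn, 61.3 of Myc, 1167 of Ccnd1, 754 of Ccnd2 and 553 of Ccnd3. It is a single array, assumed to vary as the other groups do. Against P6, Ccnd2 differed by -3.85 (SE 0.32; limma adjusted p = 0.00036), Ccnd1 by -1.81 (adjusted p = 0.000269), Mycn by -4.17 (adjusted p = 0.00419) and Myc by -2.72 (adjusted p = 0.021), with 19.2% of all genes called. The Myc call was lost without either P6 array or SMB56 parental replicate 2, at adjusted p = 0.075 to 0.0891. Ccnd3 differed by 0.53 (adjusted p = 0.525), and both P6 values, 374 and 382, lay below the adult one. Thus 4 of the 5 members were lower in the adult and Ccnd3 was not called.

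Levels of Mycn can be ordered over the 12 groups, in log2 means with SD. Primary MB stood highest at 12.66 ± 0.35 (n = 3), then parental SMB55 at 12.23 ± 0.11 (n = 2), P6 at 11.99 ± 0.08 (n = 2) and parental SMB56 at 11.76 ± 0.47 (n = 2). Of these neighbours only P6 and parental SMB56 overlapped in their arrays. SMB55 GF followed at 11.13 (n = 1), parental SMB21 at 10.60 ± 0.31 (n = 4) and SMB21 GF at 8.69 (n = 1). The low end held SMB56 RAS at 8.15 ± 0.27 (n = 2), SMB55 RAS at 7.92 ± 0.91 (n = 2), adult cerebellum at 7.81 (n = 1), SMB21 RAS at 6.98 ± 1.04 (n = 3) and SMB56 GF at 6.91 (n = 1). The arrays of each of these overlapped those of the next. RAS values, 43.4 to 361, thus lay on both sides of the adult one, 209.

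For Ccnd1 the order differed. SMB55 RAS (14.37 ± 0.07, n = 2), SMB56 RAS (14.02 ± 0.03, n = 2) and SMB21 RAS (13.74 ± 0.05, n = 3) came first, each beyond the spread of the next. SMB56 GF (13.55) and SMB55 GF (13.38) followed. Primary MB (13.11 ± 0.09, n = 3), parental SMB55 (12.96 ± 0.03, n = 2), parental SMB21 (12.90 ± 0.13, n = 4) and parental SMB56 (12.77 ± 0.58, n = 2) lay close together, above SMB21 GF (12.43), P6 (12.02 ± 0.09, n = 2) and adult (10.21). Ccnd1 was therefore high both where Mycn was high, in tumors and parental cells, and where Mycn was low, in RAS cells.

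Ccnd2 was highest in SMB56 GF (14.82), SMB55 RAS (14.29 ± 0.35, n = 2) and SMB56 RAS (14.18 ± 0.16, n = 2), and lowest in SMB21 RAS (12.98 ± 0.58, n = 3), parental SMB56 (12.70 ± 1.32, n = 2) and adult (9.59). Ccnd3 ran from SMB56 RAS (10.81 ± 0.13, n = 2) and SMB55 GF (10.58) down to P6 (8.62 ± 0.02, n = 2) and primary MB (7.89 ± 0.48, n = 3). Myc ran from parental SMB55 (11.11 ± 0.08, n = 2), SMB55 RAS (10.87 ± 0.25, n = 2) and SMB56 RAS (10.78 ± 0.09, n = 2) down to SMB21 GF (8.90) and adult (6.27). In SMB55 all 5 Myc values lay between 1635 and 2283, whichever the treatment.

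Cdk6 and Mycl set the tissues apart as well. Cdk6 read 440, 293 and 367 in primary MB, against 46.9 and 55.8 at P6, and rose by 2.49 (SE 0.42; limma adjusted p = 0.0127). In parental SMB cells Cdk6 differed from primary MB by -1.58 (adjusted p = 0.0266). Mycl was higher in primary MB than at P6 by 1.45 (adjusted p = 0.00765) and in parental SMB cells than at P6 by 0.95 (adjusted p = 0.0192). Cdk4 differed from P6 by 0.03 in primary MB and by 0.10 in parental cells, neither called, and fell by 2.97 in the adult (adjusted p = 0.000569). Rb1 in parental SMB cells differed from primary MB by -1.12 (adjusted p = 0.00283).

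Of the 25 Myc target genes, 4 rose and 0 fell in primary MB against P6 (16%, against 4.3% of all genes higher; median 0.17). In parental SMB cells against P6 14 rose and 0 fell (56%, against 14.6% of all genes higher; median 0.60), and in the adult 13 fell and 0 rose (52%, against 10.3% of all genes lower; median -0.87). Of the 17 S phase and mitosis genes 3 rose in primary MB (17.6%) and 9 in parental cells (52.9%), and 15 fell in the adult (88.2%; median -4.10). Of the 11 Rb and E2f genes 1 rose in primary MB (9.1%), and 1 rose and 5 fell in the adult (9.1% and 45.5%, against 8.9% and 10.3% of all genes). In parental cells 2 rose and 1 fell (18.2% and 9.1%), shares near the 14.6% and 11% of all genes. The comparisons with P6 share those 2 arrays.

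The fall of Mycn was not seen with 1 of its 3 probe sets. Probe set 1425922_a_at ran from 74.4 to 1140 over the 24 arrays and correlated at 0.915 with the one used, 1417155_at. It read 103.9, 74.4 and 90.1 in SMB21 RAS cells, against 403.5, 199.5, 213.2 and 260.1 in parental cells. In SMB55 it read 86.3 and 108.6, against 845.1 and 1140.0, and in SMB56 99.4 and 99.4, against 672.5 and 555.6. GF cells of SMB21, SMB55 and SMB56 had 184.5, 288.8 and 77.0. Probe set 1425923_at stayed between 101 and 169 on all arrays, the highest Mycn tumors included, and correlated at 0.082. By 1425923_at the RAS difference was -0.10 and the GF difference 0.12, so it showed none of the fall. The other probe sets of Ccnd1 correlated at 0.967 and 0.988 with the one used, and those of Ccnd2 at 0.847 to 0.995.

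**Figure D5:**
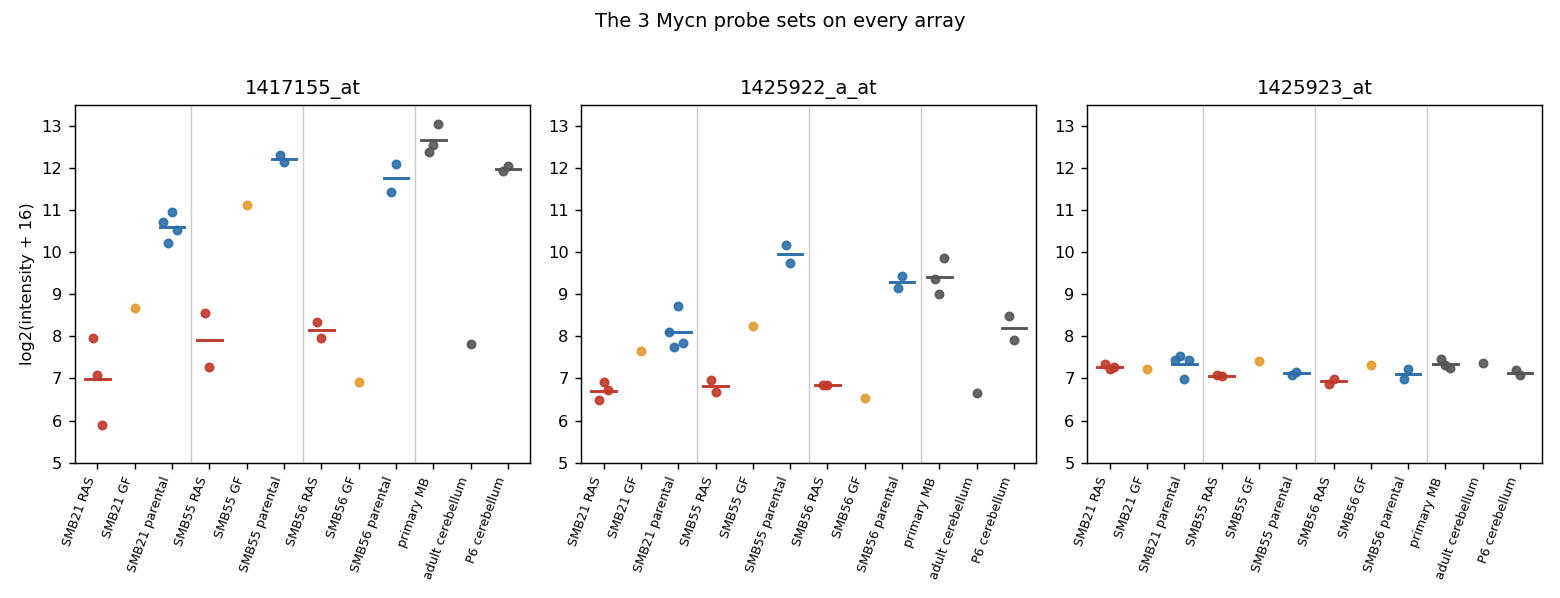
Level of the 3 Mycn probe sets, as log2(intensity + 16), on each of the 24 arrays (dots) with group means (lines), for RAS, GF and parental cells of each line, primary MB, adult and P6 cerebellum. Probe set 1417155_at, used here, and 1425922_a_at move together (r = 0.915 over 24 arrays), while 1425923_at stays between 101 and 169 in intensity throughout.

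The fall of Mycn was not shared by chromosome 12, whose other 383 measured genes had a median RAS difference of -0.07, against -0.05 over all genes. The 957 others of chromosome 7, which carries Ccnd1, had a median of -0.05. On chromosome 6, with Ccnd2, the 725 others had a median of 0.19 in primary MB against P6, compared with 0.05 over all genes and 0.63 for Ccnd2. On chromosome 15, with Myc, the 494 others had a median RAS difference of 0.14 in SMB55 and 0.10 in SMB56, against -0.04 and -0.06 over all genes.

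The genes whose pattern over the 18 cell arrays was most like that of each member are given as a description, since treatment and line set most of these correlations. For Mycn they were Hsd11b2, an enzyme that inactivates glucocorticoids (r = 0.946), Chst5 (r = 0.945), Insm1, a transcription factor of dividing neuronal progenitors (r = 0.944), Mapk8ip2 (r = 0.936) and Septin3 (r = 0.935). Over all 24 arrays Insm1 kept r = 0.960 and Hsd11b2 r = 0.931, whereas Chst5 had r = 0.499. For Ccnd1 they were Hmga2, a chromatin protein (r = 0.941), Dusp22 (r = 0.937), the aryl hydrocarbon receptor Ahr (r = 0.935), Slc22a23 (r = 0.934) and Aig1 (r = 0.923). Over 24 arrays these fell to between 0.374 for Ahr and 0.731 for Hmga2.

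For Myc the most alike were Nfs1 (r = 0.926), Rlbp1 (r = 0.925), Gdpd3 (r = 0.897), Ndrg3 (r = 0.895) and Manbal (r = 0.893). For Ccnd3 they were the lysosomal membrane protein Lamp1 (r = 0.866), Ptprm (r = 0.843), the lysosomal protease Ctsa (r = 0.826), Dpysl3 (r = 0.824) and Ndrg1 (r = 0.822). Ccnd2 had weaker ones, with the apoptosis gene Bak1 first (r = 0.839), then AI413582 (r = 0.786), Nab2, a corepressor of Egr factors (r = 0.759), Lcat (r = 0.756) and B4galt6 (r = 0.747, and -0.006 over 24 arrays). None of the 5 members was among the closest 5 genes of another.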

How the data were processed

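The deposited values are linear intensities, 1 per probe set and array, made by the authors from biotin-labelled total RNA on Affymetrix arrays. The summary method and the normalization are not given in the sources used here. Arrays have no read depth; signal over background limits their precision and compresses differences of dim probe sets. A single gene symbol was attached to 20393 of 22690 probe sets, and the brightest one on average over 24 arrays was used for each of 12394 genes, as log2(intensity + 16).

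The fits used limma 3.58.1 in R 4.3.3 (empirical Bayes, two-sided, Benjamini-Hochberg over 12394 genes), and a gene was called at an adjusted p under 0.05. Cultures were fitted on 18 arrays with treatment and line as terms, line by line with a mean for each line and treatment, and tissues on the 6 tissue arrays and 3 parental line means. Arrays of 1 line count as replicates, so p-values hold for these lines. The tests were tested on simulated data with 200 changed genes. A log2 change of 1 was recovered for 86.6% with RAS, 73.1% with GF and 41.8% for primary MB against P6. Simulated arrays were drawn independently around a common mean for each gene, without differences between lines or arrays that stand apart. These shares hold for that setting only.

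GF arrays, all numbered 1, correlated with parental replicate 1 of their line at 0.216, 0.339 and 0.104. These are deviations from treatment means with the line included, so they can reflect the line and do not establish pairing. Parental replicate 2 correlated more highly in SMB21 (0.273) and SMB56 (0.11). RAS and parental arrays of the same number correlated at -0.154 to -0.02 and tumor and P6 arrays at -0.028 and 0.005 (deviations from group means). The main fits paired no arrays, and a replicate block was fitted as an alternative only.

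The members, the 9 pathway lists and the marker lists were chosen with earlier results of these data known. Named genes are the members, Gli1, Ptch1 and Hhip, Mycl, Cdk4, Cdk6 and Rb1, the 5 genes most correlated with each member, and up to 4 called genes of each list with the smallest p with RAS and with GF. The Y-linked genes, the single astrocyte markers and list genes that did not pass were named after their values were seen. Alternatives covered the pseudocount, probe set, low-level filter, block, line and each array left out. Promoters are those of RefSeq on GRCm38.p6, searched on both strands.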

Additional observations from a re-analysis of the deposited data

Results flagged for a closer look

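For 2 cyclins the single GF array lay above the parental arrays in some lines and below them in another. The share of all genes with such a pattern was not computed. For Ccnd1 the GF array lay below all parental arrays in SMB21, a difference of -0.47 (-0.473) from their mean, and above them in SMB55 (0.413) and SMB56 (0.784). For Ccnd3 the GF array lay above all parental arrays in SMB21 (1.249) and SMB55 (0.601) and below them in SMB56 (-0.594). The limma F test of the difference between lines did not pass for either, at adjusted p = 0.19 for Ccnd1 and adjusted p = 0.467 for Ccnd3, and each line has 1 GF array. Without SMB56 parental replicate 2 that of Ccnd1 passed (0.00541). Only parental SMB21, with 4 arrays, was large enough for an outlier check, and none of its arrays was picked out. The other groups, SMB56 parental cells included, could not be checked.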

How the results depend on the processing

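Over 65 results on the members and 1760 values under alternatives, 1664 kept their direction and side of the threshold, 42 lost a call, 34 gained one and 20 changed sign. The comparisons called 3974 genes with RAS and 1109 with GF. The Mycn probe set mattered most. By 1425923_at Mycn differed by -0.101 (RAS), 0.118 (GF), -0.073, -0.052 and -0.181 (RAS within SMB21, SMB55 and SMB56), 0.058 (parental against P6) and 0.234 (adult against P6). By 1425922_a_at Mycn was 0.923 for parental against P6 and -1.543 for the adult, and its test of RAS by line had adjusted p = 0.0444. With the mean of all probe sets Mycn was 0.176 for parental against P6. By 1417419_at Ccnd1 was 0.639 for RAS against GF and 0.131 for parental against primary MB.

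With a replicate block Mycn with GF was -2.575, the GF count 243, Ccnd1 and Ccnd3 for RAS against GF 0.840 and -0.026, and Ccnd1 in primary MB against P6 1.068. Within lines with the block, Ccnd1 was 0.779 (SMB21), 1.409 (SMB55) and 1.253 (SMB56) and Mycn -4.309 (SMB55) and -3.615 (SMB56), calls lost. With only the arrays of SMB56, Mycn at -3.615 and Ccnd1 at 1.253 also lost their calls. The numbers of RAS and parental arrays did not pair. In SMB55, where they correlated below -0.1, the labelled pairing called 0 genes (limma; 3461 at an unadjusted p under 0.05) and the crossed one, chosen after seeing the data, 1411. With 1 mean per line and treatment, fewer samples, Mycn was -3.851 (RAS) and -2.620 (GF), Ccnd1 1.168 (RAS) and 0.926 (RAS against GF), and 667 (RAS) and 19 (GF) genes were called. The mean of 3 contrasts within lines called 1836 genes with GF.

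Without line SMB21, Mycn was -2.970 with GF and 0.009 for parental against P6, Ccnd1 0.732 for RAS against GF, and 200 genes were called with GF. Without line SMB55, 2548 genes were called with RAS and Ccnd1 was 0.888 for RAS against GF. Without line SMB56, with GF Mycn was -1.484, Ccnd1 -0.091 and 306 genes were called, Ccnd3 was -0.413 and Mycn -2.408 (called) for RAS against GF, and Ccnd2 was 0.629 (called) for primary MB against P6. Only the groups compared gave Ccnd2 0.629 (primary MB against P6, called) and -0.883 (parental against primary MB, not called), and all 8 parental arrays with line as a random block -0.864 for the second. All 3 cerebella as 1 group gave Ccnd1 1.691 in primary MB, and Ccnd1 1.461, Mycn 0.937 and Ccnd2 1.028 in parental cells.

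Added after seeing the data, leaving out the first parental arrays gave Myc -0.053 (RAS) and Ccnd2 -1.247 (parental against primary MB), with 3025 genes called with RAS. The first parental arrays alone gave Mycn -2.822, Myc 0.089 and 301 genes with GF. Leaving out 1 array at a time, Ccnd2 ran from -1.194 to -0.572 (parental against primary MB), 0.519 to 0.738 (primary MB against P6) and -0.565 to 0.056 (parental against P6), Myc in the adult from -2.749 to -2.694, and Myc from -0.044 to 0.384 (RAS), -0.623 to -0.134 (GF) and -0.288 to 2.022 (RAS in SMB56). Mycn with GF ran from -3.392 to -1.450, Ccnd1 with GF from -0.065 to 0.486 and for RAS against GF from 0.619 to 1.165, Ccnd3 for RAS against GF from -0.408 to 0.520, and the GF count from 401 to 1190. Adjusted p of the test of RAS by line ran from 0.000674 to 0.779 for Myc, 0.0168 to 0.513 for Ccnd1 and 0.0241 to 0.360 for Ccnd2. Where fewer samples do not show it, the cause was not tested.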
